A study of Mus musculus with 6 samples.

Results

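The Ly6 surface antigens are a cluster of related genes on mouse chromosome 15, and 6 of them were followed here by name: Ly6g, Ly6c1, Ly6c2, Ly6a, Ly6d and Ly6i. Each was taken as its row of the deposited expression table, so the set holds 6 of 28987 genes, and Ly6g encodes the antigen by which mature myeloid cells were sorted. RNA was measured in marrow cells of C57BL/6 mice that carried mutations of CBL and RUNX1, which the series places under myelodysplastic syndrome (MDS), with Mdivi-1 or vehicle. Mdivi-1 was introduced as a blocker of Drp1, the GTPase that divides mitochondria. There were 4 groups: mutant Ly6G+ myeloid cells with Mdivi-1 (2 libraries) and with vehicle (2 libraries), and hematopoietic stem and progenitor cells (HSCP) with Mdivi-1 (1 library) and with vehicle (1 library). HSCP were enriched through CD117, the product of Kit, before cells of the mutant clone were collected by FACS. Every group carried the mutations, so no wild-type cells were compared. Age, dose, duration and the way the mutations were introduced are not stated in the labels. Marrow came from individual mice, but libraries are not tied to mice, so p-values measure only the spread between these libraries.

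Ly6 proteins are small, cysteine-rich proteins held on the outer face of the cell by a glycosylphosphatidylinositol (GPI) anchor, and they share a 3-finger fold with the urokinase receptor. Several serve as markers in mouse blood. Ly-6G, from Ly6g, marks the neutrophil lineage, and Ly-6C, from Ly6c1 and Ly6c2, is used with it to separate neutrophils from monocytes. Sca-1, from Ly6a, marks stem and early progenitor cells and is induced by interferons. Ly6d marks lymphoid progenitors that are turning to the B cell fate. Ly6i encodes a close relative of Sca-1 and Ly-6C.

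The values are TPM (transcript shares corrected for length), so levels of different genes can be compared within a library. Read totals cannot be had from TPM, and the depth behind each value is unknown. Kit, the marker of the HSCP enrichment, stood at 9.52 and 8.73 TPM in Ly6G+ Mdivi-1 and 10.4 and 14.1 TPM in Ly6G+ vehicle, against 64.9 TPM in HSCP Mdivi-1 and 72.2 TPM in HSCP vehicle. The number of genes at 1 TPM or more ranged between 11456 and 11930 over the libraries.

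All 6 genes are protein-coding and lie within the same stretch of chromosome 15 (mm10; annotation from GENCODE M21). In chromosome order they are Ly6d (74762056 to 74763620), Ly6i (74979534 to 74983430), Ly6a (74994877 to 74998031), Ly6c1 (75044018 to 75048830), Ly6c2 (75108158 to 75111970) and Ly6g (75155240 to 75159126). Ly6g is read from the plus strand and the other 5 from the minus strand. Their transcripts are alike, which bears on how kallisto, the authors' quantifier, could divide reads among them. The longest coding transcripts of Ly6c1 and Ly6c2 were identical at 802 of 822 aligned bases (97.6%), whereas Ly6g was identical to Ly6c2 at 81.3% of aligned bases and Ly6d to Ly6g at 64.2%. Of the distinct 31-base words of each gene's transcripts, the share found in no other gene was 100% for Ly6d, 90.5% for Ly6g, 80.8% for Ly6i, 76.2% for Ly6c2, 68.1% for Ly6a and 53.2% for Ly6c1. Ly6c1 shared 581 words with Ly6c2 and 276 with Ly6a. The division of reads is therefore less certain for Ly6c1, Ly6c2, Ly6a and Ly6i than for Ly6d and Ly6g, which says nothing of the spread between libraries. The annotated gene I830127L07Rik, which shares words with Ly6a, Ly6i, Ly6c1 and Ly6c2, has no row under its gene ID in the deposited values. It could therefore not be analysed here.

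The 250 bases before a RefSeq start of the most abundant members, Ly6c2 and Ly6g, are shown with those of Ly6c1 (RefSeq, GRCm38.p6). Ly6c1 is shown because it is nearly identical to Ly6c2 in transcript sequence but was hardly detected. RefSeq lists 2 starts for each of these genes, and the one nearest to the GENCODE start was used. Matches and distances hold for that start alone. The windows come from chr15:75111972-75112221 (minus strand) for Ly6c2, chr15:75155011-75155260 (plus strand) for Ly6g and chr15:75048838-75049087 (minus strand) for Ly6c1. Capitals mark matches, on either strand, to 5 motifs: TATAAA (the core promoter box), GAGGAAGT (core of the PU.1 site), TTGCNNAA (C/EBP), TTCNNNGAA (STAT) and the core of the interferon response element.
Ly6c2: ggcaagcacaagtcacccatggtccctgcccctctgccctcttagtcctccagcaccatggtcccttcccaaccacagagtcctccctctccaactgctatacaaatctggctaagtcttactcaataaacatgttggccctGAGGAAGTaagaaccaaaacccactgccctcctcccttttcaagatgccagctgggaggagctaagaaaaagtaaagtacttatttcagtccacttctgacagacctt
Ly6g: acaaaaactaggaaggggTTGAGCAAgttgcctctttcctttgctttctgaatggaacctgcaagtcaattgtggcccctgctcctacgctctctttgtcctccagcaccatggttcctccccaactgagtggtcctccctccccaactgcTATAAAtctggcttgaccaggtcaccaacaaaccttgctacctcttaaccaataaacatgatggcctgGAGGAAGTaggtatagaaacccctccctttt
Ly6c1: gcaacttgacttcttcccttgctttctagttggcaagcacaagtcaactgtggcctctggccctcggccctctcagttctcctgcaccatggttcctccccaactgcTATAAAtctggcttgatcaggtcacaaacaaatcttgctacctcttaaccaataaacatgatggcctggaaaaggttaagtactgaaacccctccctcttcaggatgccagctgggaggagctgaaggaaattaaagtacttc

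TATAAA was found in the windows of Ly6g, 99 bases before the start, and of Ly6c1, 143 bases before it, and in 12.4% of 32851 RefSeq windows of that length. GAGGAAGT was found in the windows of Ly6g and Ly6c2, 31 and 108 bases before the start, and in 2.44% of all windows. TTGCNNAA was matched on the opposite strand of the Ly6g window and in 9.56% of all windows. TTCNNNGAA (7.02% of all windows) and the interferon response element core (2.98%) had no match in these 3 windows, and no matches overlapped. Over aligned bases the window of Ly6g was identical to that of Ly6c1 at 83.5% and to that of Ly6c2 at 80.3%, and those of Ly6c1 and Ly6c2 were identical at 75.9%. A match is a description of the letters and not evidence of binding.

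Ly6c2 and Ly6g were the abundant members in both populations. Ly6c2 stood at 944 and 933 TPM in Ly6G+ Mdivi-1 and 1269 and 1269 TPM in Ly6G+ vehicle, and at 691 TPM in HSCP Mdivi-1 and 826 TPM in HSCP vehicle. Ly6g stood at 791 and 642 TPM in Ly6G+ Mdivi-1 and 814 and 839.8 TPM in Ly6G+ vehicle, and at 90.1 TPM in HSCP Mdivi-1 and 187 TPM in HSCP vehicle. By level, Ly6c2 ranked between 60 and 109 among all genes in the Ly6G+ libraries and Ly6g between 127 and 174. In HSCP Mdivi-1 and HSCP vehicle, Ly6c2 still ranked 199 and 165, while Ly6g ranked 1590 and 653. Ly6c2 was above Ly6g in every library, by 1.19 and 1.45 times in Ly6G+ Mdivi-1, 1.56 and 1.51 times in Ly6G+ vehicle, 7.66 times in HSCP Mdivi-1 and 4.43 times in HSCP vehicle.

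The remaining members were far lower. Ly6a stood at 16.7 and 20.6 TPM in Ly6G+ Mdivi-1 and 25.3 and 27.0 TPM in Ly6G+ vehicle, and at 14.6 TPM in HSCP Mdivi-1 and 24.3 TPM in HSCP vehicle. Ly6i stood at 16.2 and 16.3 TPM in Ly6G+ Mdivi-1 and 31.2 and 24.3 TPM in Ly6G+ vehicle, and at 8.61 TPM in HSCP Mdivi-1 and 14.6 TPM in HSCP vehicle. Ly6d stood at 3.81 and 2.32 TPM in Ly6G+ Mdivi-1 and 4.99 and 8.11 TPM in Ly6G+ vehicle, and at 0.541 TPM in HSCP Mdivi-1 and 2.99 TPM in HSCP vehicle. Ly6a and Ly6i were neighbours whose levels overlapped in Ly6G+ vehicle and were not separated beyond the spread in Ly6G+ Mdivi-1. In HSCP, Ly6a was above Ly6i in both libraries. Ly6c1 was listed at 0 in Ly6G+ Mdivi-1 replicate 1, in both Ly6G+ vehicle libraries and in HSCP Mdivi-1, at 0.379 TPM in Ly6G+ Mdivi-1 replicate 2 and at 0.797 TPM in HSCP vehicle. Nearly all of the signal of the Ly-6C pair was thus assigned to Ly6c2, although reads of the 581 shared words could belong to either gene.

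**Figure D1:**
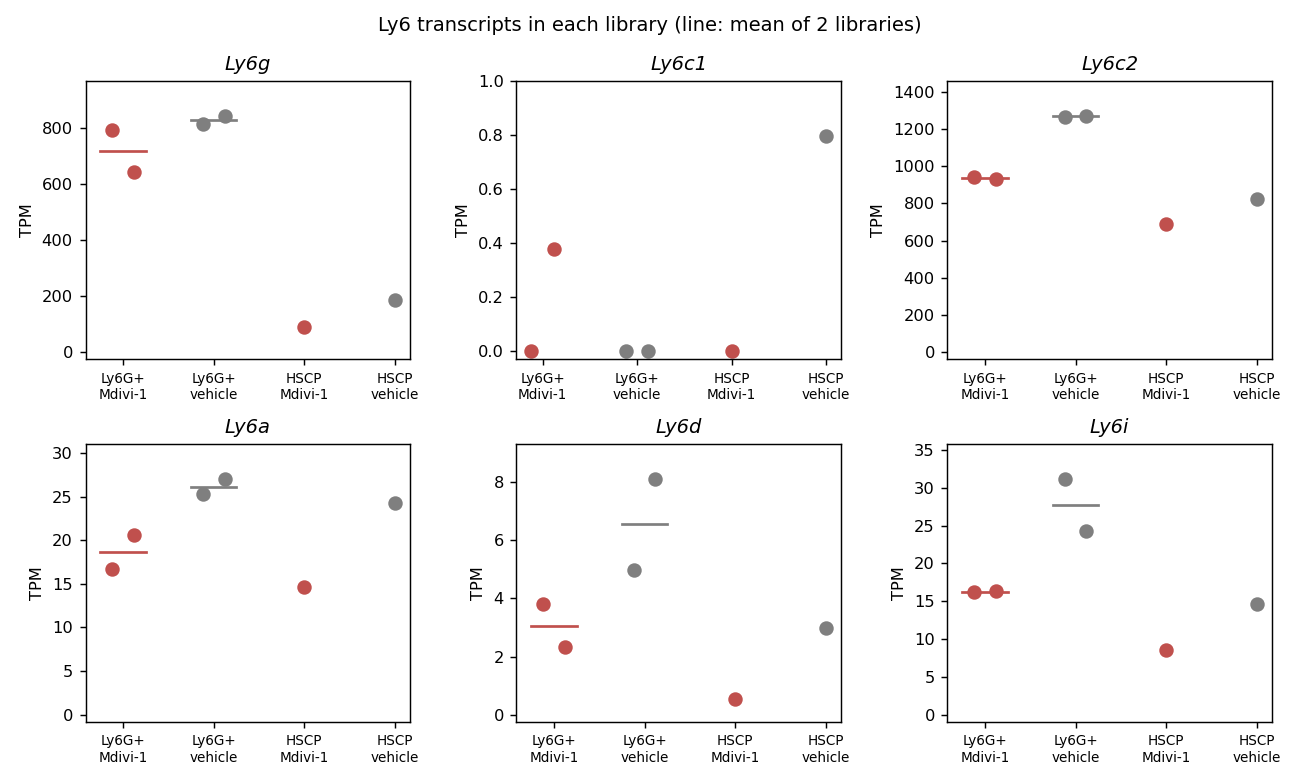
TPM of each Ly6 gene in every library, by group, with a linear axis that starts near 0 in each panel. Points are libraries and lines are means of the 2 Ly6G+ libraries of a group. In Ly6g, Ly6c2, Ly6a, Ly6d and Ly6i every Mdivi-1 point lies below every vehicle point of the same population. Such separation is weak evidence with so few libraries, and its share over all genes is not given here. The log2 change was below 0 in 59.3% of all genes in Ly6G+ cells and in 45.5% in HSCP.

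The treatment comparison in Ly6G+ cells asks how mature mutant cells differed with Mdivi-1. Ly6c2 and Ly6i fell with Mdivi-1, while Ly6g, the sort marker, did not pass the test. Ly6c2 averaged 939 ± 7.77 TPM with Mdivi-1 and 1269 ± 0.615 TPM with vehicle (SD, n = 2 each), which is 26.0% lower with Mdivi-1. On the log2(TPM + 1) scale, used for all log2 changes here, the change was -0.43, SE 0.04 (limma adjusted p = 0.0117). Ly6i averaged 16.2 ± 0.092 TPM with Mdivi-1 and 27.7 ± 4.89 TPM with vehicle (SD, n = 2 each), and its change was -0.73, SE 0.13 (limma adjusted p = 0.0434). The groups overlapped in neither gene. With 2 libraries per group such separation is weak evidence, and its share over all genes is not given here.

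Ly6a averaged 18.7 ± 2.75 TPM with Mdivi-1 and 26.1 ± 1.22 TPM with vehicle, with a log2 change of -0.47 and a 95% interval from -0.77 to -0.17 (limma adjusted p = 0.0849). For Ly6d the log2 change was -0.89 with an interval from -1.60 to -0.17 (limma adjusted p = 0.134). The groups of 2 libraries did not overlap in either gene, but neither passed after adjustment. Ly6g averaged 716 ± 105 TPM with Mdivi-1 and 827 ± 18.1 TPM with vehicle, a log2 change of -0.21 with an interval from -0.48 to 0.05 (limma adjusted p = 0.276). Its groups did not overlap either, with 791 TPM as the higher Mdivi-1 value and 814 TPM as the lower vehicle value. The change was -0.06 without Mdivi-1 replicate 2 and -0.37 without Mdivi-1 replicate 1.

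In total 2 of the 5 members tested were called lower and 0 higher, and Ly6c1 was below the filter of 1 TPM in at least 2 libraries. Over all 11775 genes tested, 6.7% were called, 4.24% lower and 2.46% higher. The log2 change was below 0 in all 5 members tested, against 59.3% of all genes, and its median was -0.47 over these members and -0.05 over all genes. When a library was left out, the change of Ly6c2 kept its size (-0.43 to -0.44) and that of Ly6i lay between -0.55 and -0.90. Ly6i missed the threshold in each of these fits and Ly6c2 in most of them. Such fits leave 1 library in a group and called fewer genes in all, so the lost calls do not single out a library. Higher calls made up 36.8% of all calls, 61.7% once libraries were scaled by the median of ratios and 48.2% once scaled by the upper quartile. Under those scalings the change of Ly6c2 was -0.33 and -0.38 (limma adjusted p = 0.020 and 0.0161), and Ly6i at -0.63 and -0.68 missed the threshold (0.0607 and 0.0539).

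**Figure D2:**
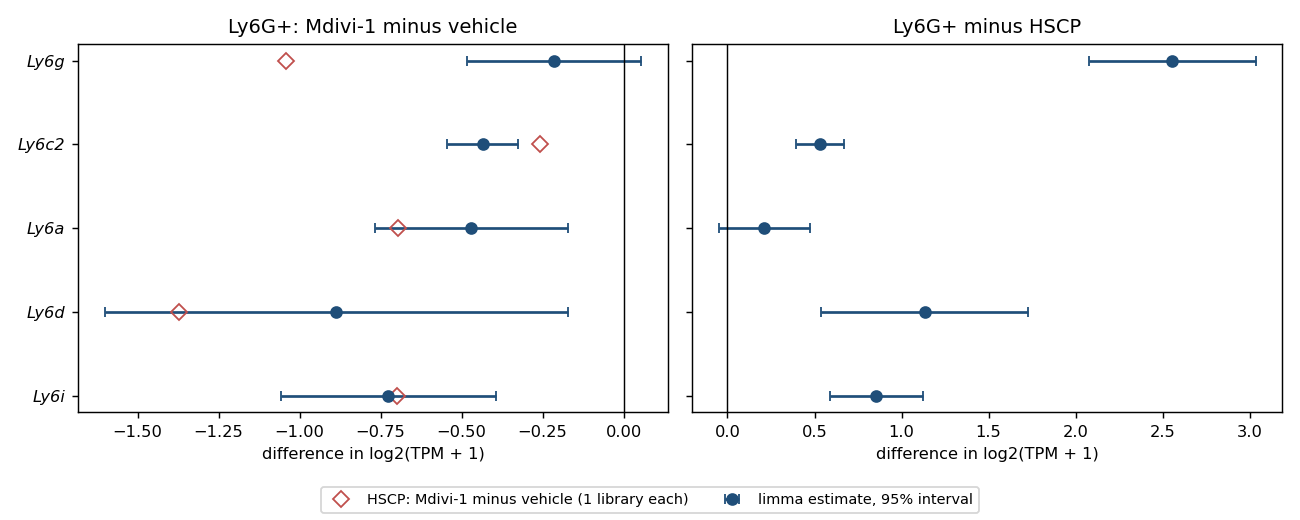
Differences in log2(TPM + 1) of the 5 Ly6 genes tested, with points and 95% intervals from limma for Mdivi-1 minus vehicle in Ly6G+ cells (left) and for Ly6G+ minus HSCP (right). Open diamonds are HSCP Mdivi-1 minus HSCP vehicle with 1 library each and carry no interval; all 5 lie below 0, with Ly6d at -1.37 and Ly6g at -1.04.

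In HSCP, each treatment had 1 library, so differences have no replicate check. The Mdivi-1 library held lower levels of all 5 members that averaged at least 1 TPM in HSCP. The log2 ratio, Mdivi-1 over vehicle on the log2(TPM + 1) scale, was -1.04 for Ly6g, -1.37 for Ly6d, -0.70 for Ly6i, -0.69 for Ly6a and -0.26 for Ly6c2. A ratio of at least 1 in size was reached by 2 of these 5 members, Ly6g and Ly6d, both lower, and by 2.43% of 11881 genes (1.42% lower, 1.01% higher). Ly6d averaged 1.77 TPM in HSCP and its ratio ranged between -2.27 and -0.53 over the alternatives, whereas that of Ly6g lay between -1.01 and -1.07 under all alternatives. The ratio was below 0 in 45.5% of all genes.

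The lower level of Ly6g in HSCP Mdivi-1 was set beside the other transcripts of maturing neutrophils. The 20 genes of that list summed to 92876 TPM in HSCP Mdivi-1, which is 91.5% of the 101451 TPM in HSCP vehicle. Most of these sums came from S100a8 (36842 and 40970 TPM) and S100a9 (31376 and 33242 TPM). Of the list, 15 of 20 genes were below 0, with a median log2 ratio of -0.17 and 0 genes past the fold. Padi4, whose product citrullinates histones in neutrophils, had the lowest ratio among them (-0.63), which is smaller in size than that of Ly6g. S100a8, a subunit of calprotectin, was at -0.15, and Camp, the cathelicidin gene, at -0.23. Genes of neutrophil precursors summed to 107% of the vehicle level, a sum led by Mpo (0.06), Prtn3 (0.16) and Elane (0.09). On that list 3 of 11 genes were below 0, Fcnb (-0.33), Cebpe (-0.18) and Nkg7, which at -1.35 was the only one past the fold. Other lineages went both ways in HSCP Mdivi-1. Erythroid genes summed to 5697 TPM with Mdivi-1 and 5344 TPM with vehicle, with 3 of 11 below 0. Sums were also higher with Mdivi-1 for plasma cell genes (21.5 and 18.2 TPM) and T and NK cell genes (6.47 and 4.62 TPM). Some lineages were lower. Megakaryocyte and platelet genes were below 0 in 10 of 10 cases, 6 of them past the fold, and summed to 173 TPM with Mdivi-1 and 353 TPM with vehicle. Eosinophil genes were below 0 in 5 of 5 measured cases, none past the fold, and summed to 379.7 TPM with Mdivi-1 and 679 TPM with vehicle, and endothelial genes were below 0 in 5 of 5 with 1 past the fold. The part of these lineages in the HSCP values of the Ly6 genes was not tested. Because bulk RNA was measured, fewer cells of a type and less RNA per cell cannot be told apart, here or in the results that follow.

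The difference between the treatment effects of the populations was tested as an interaction over all 6 libraries, with the lone HSCP libraries assumed to vary like the Ly6G+ pairs. For Ly6g the effect in Ly6G+ cells minus that in HSCP was 0.83 with an interval from 0.34 to 1.31 (unadjusted p = 0.00733, limma adjusted p = 0.276), so it did not pass over all genes. Ly6c2 went the other way at -0.18, with an interval from -0.37 to 0.02 (limma adjusted p = 0.478). Intervals of the other 3 members spanned 0 widely, with Ly6a at 0.23, Ly6d at 0.49 and Ly6i at -0.03, and the sign for Ly6i turned under other scalings. In limma 0 of 12338 genes passed (0% called), also without a trended or robust prior, and 1398 had an unadjusted p under 0.05.

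Between populations, the comparison over both treatments asks how the mature cells differ from the CD117-enriched HSCP. The HSCP libraries also held transcripts of maturing neutrophils. The 20 listed genes summed to 92876 TPM in HSCP Mdivi-1 and 101451 TPM in HSCP vehicle, against 277506 to 290480 TPM in Ly6G+ libraries. The part of maturing neutrophils in the HSCP values of the Ly6 genes was not tested. Ly6g, which the sort selected, Ly6d, Ly6i and Ly6c2 were higher in Ly6G+ cells, and Ly6a was not called. Ly6g averaged 772 ± 88.9 TPM in Ly6G+ cells (SD, n = 4) and 138 ± 68.2 TPM in HSCP (SD, n = 2), which is 5.58 times higher (log2 change 2.56, SE 0.19; limma adjusted p = 9.05e-05). Since protein from this gene defined the sort, that difference checks the sort and is not a separate result. In vehicle libraries alone the log2 change was 2.14 and in Mdivi-1 libraries alone 2.97.

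Ly6c2 was 1.46 times higher, with a mean of 1104 ± 191 TPM in Ly6G+ cells and 758 ± 95.8 TPM in HSCP, and a log2 change of 0.53 (limma adjusted p = 0.000256). Ly6i averaged 22.0 ± 7.20 TPM in Ly6G+ cells and 11.6 ± 4.24 TPM in HSCP, a log2 change of 0.86 (limma adjusted p = 0.000527). The log2 change of Ly6d was 1.13 (limma adjusted p = 0.00576), but it missed the threshold without the HSCP Mdivi-1 library (0.89, limma adjusted p = 0.0748). Ly6a, the gene of the stem cell antigen Sca-1, averaged 22.4 ± 4.64 TPM in Ly6G+ cells and 19.5 ± 6.84 TPM in HSCP, a log2 change of 0.21 with an interval from -0.05 to 0.47 (limma adjusted p = 0.119). The call for Ly6a depended on the scaling, as given next.

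Of the 5 members tested, 4 were called higher and 0 lower, against 72.4% of 12338 genes called in all, 22.2% higher and 50.3% lower. The higher calls include Ly6g, whose call follows from the sort and is no result about the members. The others were Ly6c2, Ly6i and Ly6d. The median of all genes was -0.35, and it became -0.02 with median-of-ratios and -0.07 with upper-quartile scaling. Relative to the median of -0.35, Ly6g stood 2.90 higher, Ly6d 1.48, Ly6i 1.20, Ly6c2 0.88 and Ly6a 0.56. After these scalings Ly6a was also called higher in Ly6G+ cells (0.56, limma adjusted p = 0.00605, and 0.51, limma adjusted p = 0.00901). Higher calls made up 30.6% of all calls, and 49.1% and 46.5% with these scalings.

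Genes next to the members on chromosome 15 were then described by position. From Psca to Gpihbp1 (74714839 to 75599481) the table holds 26 annotated genes, of which 10 were at 0 in every library and 10 could be tested in Ly6G+ cells. With Mdivi-1, 5 of these 10 were called lower and 0 higher, with a median log2 change of -0.57, against the 4.24% of all genes called lower. Besides Ly6c2 and Ly6i these were Ly6f, a further Ly6 gene, and the annotated pseudogenes Gm10238 and 9030619P08Rik. Ly6f stood at 98.7 and 99.97 TPM in Ly6G+ Mdivi-1 and 158 and 159.7 TPM in Ly6G+ vehicle, with a log2 change of -0.67 and SE 0.05 (limma adjusted p = 0.0062). In HSCP it stood at 29.0 TPM with Mdivi-1 and 49.5 TPM with vehicle.

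Gm10238 stood at 13.3 and 10.6 TPM with Mdivi-1 and 25.1 and 23.6 TPM with vehicle in Ly6G+ cells (log2 change -0.98, limma adjusted p = 0.0213). For 9030619P08Rik the means were 6.51 ± 1.28 TPM with Mdivi-1 and 14.8 ± 2.56 TPM with vehicle (SD, n = 2 each; log2 change -1.08, limma adjusted p = 0.0356). Reads may be shared here too, as 19 of the 31-base words of Ly6g are also in Gm10238. Ly6e, which is induced by interferons like Ly6a, lies between Ly6d and Ly6i and was not called, at 550.1 and 485 TPM with Mdivi-1 and 535 and 539 TPM with vehicle (log2 change -0.06, limma adjusted p = 0.676). Them6, at the edge of the cluster, was at 0.08 (limma adjusted p = 0.668). Between populations Ly6f was 3.29 times higher in Ly6G+ cells (log2 change 1.70, limma adjusted p = 6.92e-06), while Ly6e was lower (log2 change -0.49, limma adjusted p = 0.00076).

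**Figure D3:**
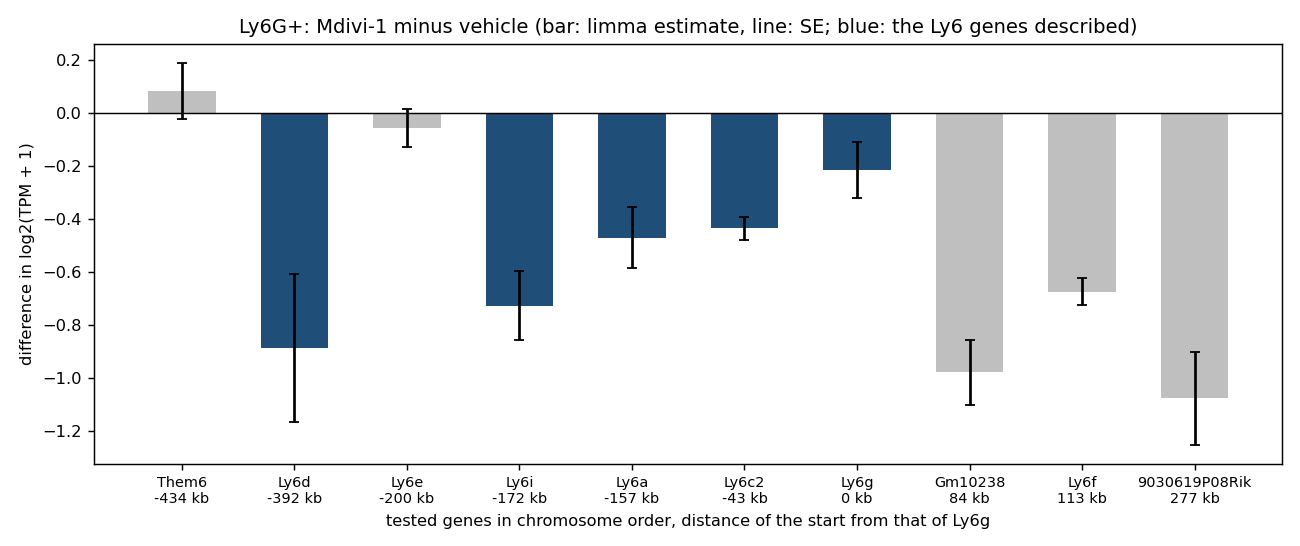
Differences in log2(TPM + 1) between Mdivi-1 and vehicle in Ly6G+ cells for the 10 genes of the cluster that could be tested, in chromosome order, with SE from limma and the distance of each start from that of Ly6g. Blue bars are the 5 tested of the 6 chosen Ly6 genes and grey bars their neighbours; 9030619P08Rik (-1.08) lies lowest, and Ly6e (-0.06) and Them6 (0.08) lie nearest to 0.

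Ly6 relatives on other chromosomes and the GPI pathway gave the wider family. Of 20 such Ly6/uPAR genes, 6 were tested and 2 were lower with Mdivi-1 in Ly6G+ cells: Cd177, the gene of a neutrophil surface glycoprotein (log2 change -0.26, limma adjusted p = 0.0403), and Ly6g5b (log2 change -0.56, limma adjusted p = 0.0341). Plaur, which encodes the urokinase receptor, was not called (log2 change -0.12, limma adjusted p = 0.306). Between populations 3 of 6 were higher in Ly6G+ cells, Plaur (1.73), Cd177 (1.28) and Ly6g5b (0.93). Cd59b and Cd59a, whose products block the complement attack complex, were lower (-2.34 and -0.93). Of 26 tested genes that build the GPI anchor, 0 were called with Mdivi-1 in limma and 3 had an unadjusted p under 0.05 (median log2 change -0.09). Between populations 19 of these 26 were lower and 2 higher in Ly6G+ cells, with a median of -0.60 beside -0.35 over all genes. Of all genes tested, 50.3% were called lower and 22.2% higher between populations, and 4.24% lower and 2.46% higher with Mdivi-1 in Ly6G+ cells.

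Markers of cell types that carry Ly6 antigens were measured in the same libraries. Counts in Ly6G+ cells stand beside 4.24% of all genes called lower and 2.46% called higher with Mdivi-1. Monocyte and macrophage genes, beside Ly6c2, moved in both directions in Ly6G+ cells: 2 rose and 1 fell of 15 tested, and the summed level with Mdivi-1 was 103% and 106% of the vehicle mean. Csf1r, the receptor of a monocyte growth factor, stood at 156 and 153 TPM with Mdivi-1 and 163 and 159.7 TPM with vehicle. F13a1 and C1qb rose (log2 change 0.40 and 0.51, limma adjusted p = 0.0237 and 0.0352). Irf8, a transcription factor of monocytes and dendritic cells, fell (log2 change -0.59, limma adjusted p = 0.0134). Among 20 genes of maturing neutrophils 9 rose and 6 fell (median 0.13). The largest rises were those of Stfa2l1 (1.35), Stfa2 (1.32) and Il1b (1.21). Cxcr2, a chemokine receptor (0.76), and Retnlg, a resistin-like gene (0.51), also rose. Ltf and Camp, of the secondary granules, fell (-0.50 and -0.65), and so did Cd177, which this list shares with the family above.

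B cell genes, beside Ly6d, fell in 13 of 15 cases in Ly6G+ cells, against 4.24% of all genes called lower. The list summed to 31.4 and 32.4 TPM with Mdivi-1 and 174 and 174 TPM with vehicle. None of its genes was at 0 in any library. Cd79a, a chain of the B cell receptor, stood at 2.94 and 1.76 TPM with Mdivi-1 and 19.7 and 19.1 TPM with vehicle. In HSCP the same list summed to 63.2% of the vehicle level with Mdivi-1, and 9 of its 10 measured genes had a ratio below 0. Among genes of plasmacytoid dendritic cells, some of whose progenitors carry Ly6d in mice, 1 of 5 tested fell and 0 rose in Ly6G+ cells. Of 9 T and NK cell genes tested 1 rose and 1 fell. Among lineages with no Ly6 marker here, 9 of 10 megakaryocyte and platelet genes, 5 of 6 basophil and mast cell genes and 4 of 11 erythroid genes fell and none rose. Of 5 eosinophil genes 0 were called in limma, with 0 at an unadjusted p under 0.05, and of 6 plasma cell genes 2 fell and 1, the immunoglobulin joining chain gene Jchain, rose (log2 change 1.0, limma adjusted p = 0.018). The part of other cells in the values of Ly6d was not tested.

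Interferon-stimulated genes, beside Ly6a, fell in 25 of 46 cases in Ly6G+ cells and rose in 0, with a median log2 change of -0.42. Of all genes tested, 4.24% were called lower. The largest falls on this list were those of the interferon-inducible GTPase gene Iigp1 (-1.99), Ifi44 (-1.76) and the chemokine gene Cxcl10 (-1.49). The summed level with Mdivi-1 was 76.6% and 73.9% of the vehicle mean in Ly6G+ cells and 73.5% in HSCP. The 6 Ly6 genes summed to 82.2% and 74.9% of the vehicle mean in Ly6G+ cells and 76.2% in HSCP. That sum is nearly all Ly6c2 (53.3% to 85.8% of it by library) and Ly6g (11.2% to 44.6%), while Ly6a made up 0.945% to 2.30%. Stem and progenitor genes, the other setting of Sca-1, fell in 3 of 12 tested cases in Ly6G+ cells, among them Gata2 (-1.59) and Cd34 (-0.38), and 1 of 3 tested genes of endothelium, which also carries Sca-1 and Ly-6C, fell. Whether these lists have a part in the values of the Ly6 genes was not tested.

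**Figure D4:**
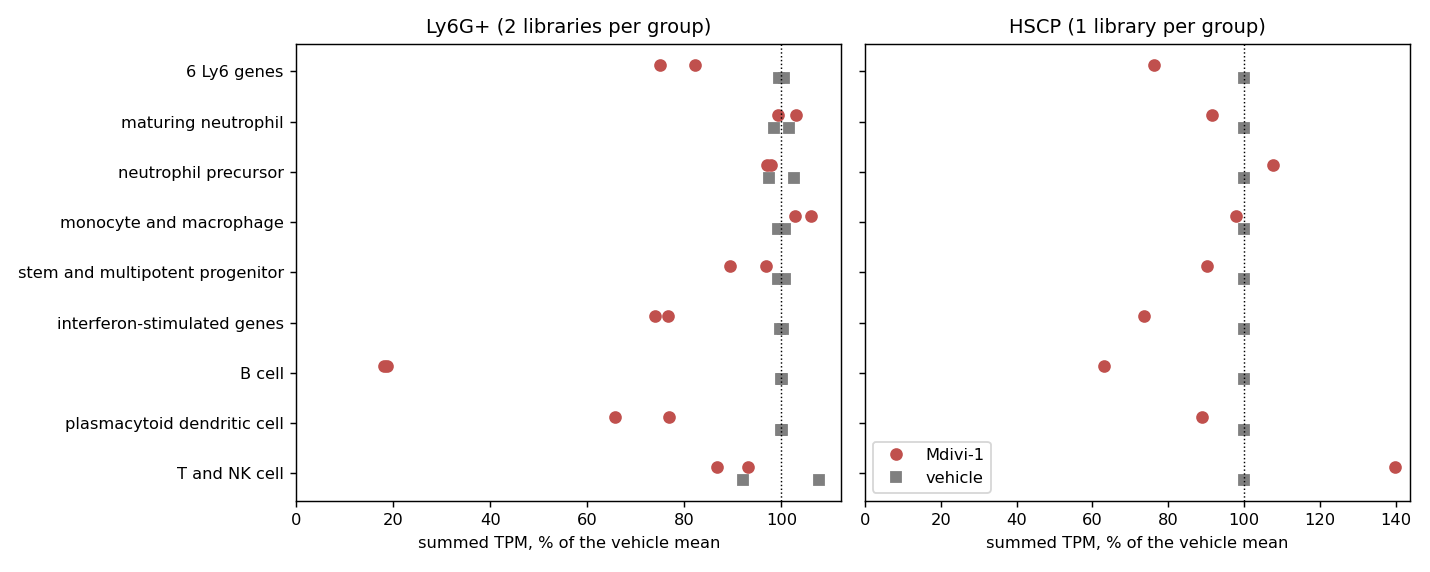
Summed TPM of each gene list as a percentage of the vehicle mean of the same population, with Ly6G+ libraries on the left and HSCP libraries on the right. Red circles are Mdivi-1 libraries and grey squares vehicle libraries. The 6 Ly6 genes (74.9% to 82.2%, mostly Ly6c2 and Ly6g) lie below 100% in all Mdivi-1 libraries. So do the interferon-stimulated (73.5% to 76.6%), B cell (18.1% to 63.2%), plasmacytoid dendritic cell (65.6% to 88.8%) and stem and multipotent progenitor genes (89.5% to 96.7%). Monocyte genes lie between 97.9% and 106%.

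The genes whose pattern over the 6 libraries was most like that of a member were found by the root mean square difference of centred log2(TPM + 1) values, among genes averaging at least 5 TPM. Nearest to Ly6g were Tmcc1 (0.15), the interferon-stimulated gene Rtp4 (0.16) and Ddx60, an interferon-induced helicase gene (0.17). Nearest to Ly6d were the immunoglobulin kappa segment Igkv4-71 (0.24), Oas1g, of an antiviral enzyme family (0.25), and Usp18, which removes ISG15 from proteins (0.26). Among the nearest to Ly6i were Ifit1bl1 (0.12) and Zfp467 (0.12). Nearest to Ly6a were Rabgap1l (0.10), the retinoic acid receptor gene Rarg (0.12) and Klhl25 (0.12). Ly6c2 had the closest neighbours: Arl5c (0.03), the NF-kB subunit gene Relb (0.04) and Aoah, whose product inactivates endotoxin (0.04). These rankings describe likeness over 6 libraries of 4 groups and say nothing of shared function.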

How the data were processed

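RNA was sequenced in 6 libraries of 4 groups. The deposited values are in TPM for 28987 genes; the table's name speaks of counts, yet values are not whole and each library sums to between 963243.1 and 979168.3. bcl2fastq, CASAVA 1.8, kallisto and mm10 are named per the submitters' processing notes; no source used here gives the transcript set, the kallisto version or the strand setting, so antisense reads cannot be separated. In every pair of libraries, 0 genes at 1 TPM or more held identical values.

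Gene IDs were matched to GENCODE M21 (27458 matched), on the same assembly as mm10, with RefSeq gene IDs for list genes of another symbol. Values were tested as log2(TPM + 1) by limma 3.58.1 (R 4.3.3), its prior trended and robust, keeping genes that reached 1 TPM in 2 or more compared libraries, with a Benjamini-Hochberg threshold of 0.05; fold changes on this scale understate those of low genes. Treatment in Ly6G+ used 4 libraries (2 residual degrees of freedom), populations 6 with treatment as covariate (3), and the interaction 6 (2). HSCP arms have 1 library each and no p-value. The scripts were tested on simulated data. There the interaction fit recovered no changed gene, so its lack of calls does not show equal effects. Of 263 genes in 17 lists, 258 are in the table. Named list genes were, by rule, up to 4 per list and comparison. First came those past the test with the largest change and a mean of at least 5 TPM, then the most expressed. Genes named outside that rule, such as Padi4, Elane, Nkg7, Iigp1, Them6 and both pseudogenes, were chosen after their values were seen. Members and lists were chosen with earlier results of these data known. A gene among those nearest to Ly6i is not reported here. Sequence work used 31-base words of M21 transcripts and Biopython 1.88.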

Additional observations from a re-analysis of the deposited data

How the results depend on the processing

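In Ly6G+ cells the direction of the 5 Ly6 genes tested was the same under all alternatives run, and so was it between populations and in HSCP. The number called lower with Mdivi-1, 2 on TPM as deposited, was 1 without an expression filter, 1 after median-of-ratios scaling, 1 after upper-quartile scaling, 0 without a trended or robust prior, and 0 to 1 when a library was left out. In these fits all genes called higher (290) and lower (499) became 104 and 114 without a filter, 519 and 322 after median-of-ratios scaling, 126 and 220 without a trended or robust prior, and 17 to 116 and 5 to 163 when a library was left out, which leaves 1 residual degree of freedom and assumes that the lone library varies like the other group. With the replicate block the Ly6 count was 1, with 152 genes higher and 173 lower in all, Ly6c2 keeping its call (limma adjusted p = 0.0383) and Ly6i losing it (limma adjusted p = 0.0637). The differences between numbers 1 and 2 had a correlation of -0.03 across genes between vehicle and Mdivi-1, so no effect shared by number was visible; the labels do not say whether a number marks a shared mouse or day.

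Summing Ly6c1 and Ly6c2 changed no call of a Ly6 gene. Between populations, Ly6d missed the threshold without the treatment covariate (limma adjusted p = 0.0753) and in vehicle libraries alone (limma adjusted p = 0.0578). For the interaction, 1 gene was called higher at a pseudocount of 0.1, 5 higher and 1 lower at a pseudocount of 5, 6 higher with a filter of 5 TPM, and 0 to 2 lower when a library was left out, with 0 Ly6 genes throughout. The interaction of Ly6i, -0.03 on TPM as deposited, was 0.057 and 0.045 after median-of-ratios and upper-quartile scaling and from -0.20 to 0.15 when a library was left out; the cause was not tested. In HSCP, 289 genes passed the fold, against 460 and 85 at pseudocounts of 0.1 and 5 and 74 at a mean of at least 10 TPM; in the last 2 settings 1 Ly6 gene, Ly6g, passed. TPM carries no depth, so precision at low levels, as for Ly6d and Ly6c1, is unknown.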
